A study of Rattus norvegicus with 20 samples.

Results

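The genes described here are 9 inhibitors of the cell cycle and targets of p53: Mdm2, Ccng1, Gadd45a, Btg2, Cdkn1a, Cdkn1b, Cdkn1c, Cdkn2a and Cdkn2b. They were found by gene name among the 41012 probes of a rat microarray and are read by 16 probes, all of which passed the filter on dim signal that left 27796 genes. RNA came from primary cultures of neonatal rat heart, grown for 1 day and then left untreated (2 arrays) or given celecoxib, an inhibitor of the prostaglandin-forming enzyme cyclo-oxygenase 2. Celecoxib was given at reference concentrations of 1, 1/5 and 1/25, each for 6 h and for 24 h, with 3 arrays in each of these 6 groups. The absolute concentration, the vehicle, the time of the untreated cultures and the rat strain are not given in the sources used here. Nothing says that replicates were separate cultures, so the spread that p-values rest on may be technical only.

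The transcription factor p53 responds to DNA damage and other stress by switching on genes that stop the cell cycle, repair DNA or lead to cell death. Mdm2 is both its target and the ubiquitin ligase that removes it, which closes a feedback loop. The Cdkn genes encode inhibitors of cyclin-dependent kinases in 2 families: Cdkn1a (p21), Cdkn1b (p27) and Cdkn1c (p57) bind a broad range of cyclin-kinase complexes, while Cdkn2a (p16) and Cdkn2b (p15) bind the kinases CDK4 and CDK6. Heart muscle cells leave the cell cycle around birth, and non-muscle cells of such cultures go on dividing.

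The results below turn on 5 probes, and their sequences are shown because what each can measure depends on where it lies. The coordinates are those of the array files in rat build rn3. Cdkn1a was read by 2 probes at chr20:7386823-7386882 and chr20:7385733-7385792, 1090 bases apart, of which the first was saturated on all 20 arrays. The first 30 bases of each are given, and the GC content of the whole probe is 45% for the brighter and 28.3% for the less bright.
Cdkn1a, brighter probe: ccctgtttctgtaacaccctgagctggact
Cdkn1a, less bright probe: tcagtgtgtcttaattattatttgtgtttt
Cdkn2a and Cdkn2b are neighbours, with probe starts 30.6 kb apart at chr5:108916026-108916085 and chr5:108946651-108946710. The Cdkn2a locus also encodes Arf, which restrains Mdm2, and the files do not say which of its transcripts the probe reads. The probe of Mdm2 that was never saturated has 60 bases spread over 335 bases of genome (chr7:57026231-57026565).
Cdkn2a: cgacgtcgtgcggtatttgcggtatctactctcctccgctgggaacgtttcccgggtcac
Cdkn2b: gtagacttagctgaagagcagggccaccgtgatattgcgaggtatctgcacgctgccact
Mdm2, less bright probe: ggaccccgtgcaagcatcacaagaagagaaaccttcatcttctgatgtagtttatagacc

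Values are log2 of the processed signal minus log2 of the array's 75th percentile, so that 0 is the 75th percentile of that array. Per array, 63.6% to 83.2% of the probes stood well above background and 5.74% to 9.21% were saturated, and the small number of arrays limits the precision. The arrays were scanned on 2 days. Day 1 holds the untreated and the 24 h groups, day 2 holds the 1/5 group of 6 h, and the remaining 6 h groups are split, with 1 array at concentration 1 and 2 arrays at 1/25 on day 2. For the 1/5 group scan day and treatment can be parted only through those other groups. The arrays lay on 6 slides. Both untreated arrays were on slide 4, as were replicates 1 and 2 of celecoxib 1 for 6 h, and all 24 h arrays were on slides 1, 2 and 3. Slide and treatment therefore cannot be told apart between the 24 h groups and untreated. Untreated replicate 1 (75th percentile 4.02 times the median) and celecoxib 1/25 for 6 h replicate 3 (7.03 times) stood apart from the other 18 arrays, at 4.94 to 6.69 times.

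On the brightest probe of each of the 9 genes, Cdkn2a passed an adjusted p of 0.05 in limma in 1 of 12 comparisons: it was lower in cultures given celecoxib 1/5 for 6 h than in untreated cultures. For Cdkn1a and Mdm2 that probe was saturated on 20 and 18 of 20 arrays, which hides changes, and on the least saturated probes Cdkn1a also passed, at 1/5 for 6 h and between 24 h and 6 h at 1/5. The counts that follow are those of the brightest probes. In that comparison 1 of 9 genes passed, against 6.55% of the 27779 genes tested. None of the 9 passed at celecoxib 1 for 6 h or 1/25 for 6 h against untreated, where 0.439% and 6.03% of genes did. None passed at 24 h at concentrations 1, 1/5 or 1/25, where 0.0648%, 0.284% and 0.288% of genes did. At an unadjusted p under 0.05 there were 2 genes at concentration 1 for 6 h and 2 at 1/25 for 6 h (Cdkn1b and Cdkn2b in each), 3 at 1/5 for 6 h (Cdkn1b, Cdkn2a and Ccng1), 2 at 1/5 for 24 h (Cdkn1b and Gadd45a), and 0 at 1 and at 1/25 for 24 h. Of all genes 18.6%, 29.2%, 24.1%, 14.4%, 10.9% and 11.3% did so in these comparisons, in the same order. The median change of the 9 genes ran from -0.05 to 0.36 on the log2 scale over the 6 comparisons with untreated, and from -0.18 to 0.26 on the least saturated probes, beside medians of -0.20 to 0.00 over all genes. With 3 treated and 2 untreated arrays, absence of overlap was common: on their brightest probes 2 of the 9 genes lay wholly above untreated and 1 wholly below at concentration 1 for 6 h (10% and 16.9% of genes), 2 and 3 at 1/5 for 6 h (19.7% and 31.8%), and 1 and 1 at 1/25 for 6 h (10.4% and 19.2%). At 24 h the counts were 2 above and 1 below at 1 (11.6% and 16.7% of genes), 5 and 2 at 1/5 (20.9% and 19.1%), and 3 and 0 at 1/25 (14.2% and 18.8%). On the least saturated probes the counts above untreated were 1, 2 and 0 at 6 h and 2, 3 and 4 at 24 h at concentrations 1, 1/5 and 1/25, those below did not differ in number, and Cdkn1a at 1/5 for 6 h lay above rather than below. The shares of all genes were computed on the brightest probes only, so these counts have no matching share. In bulk cultures, fewer cells of a type and less RNA per cell cannot be told apart.

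**Figure D1:**
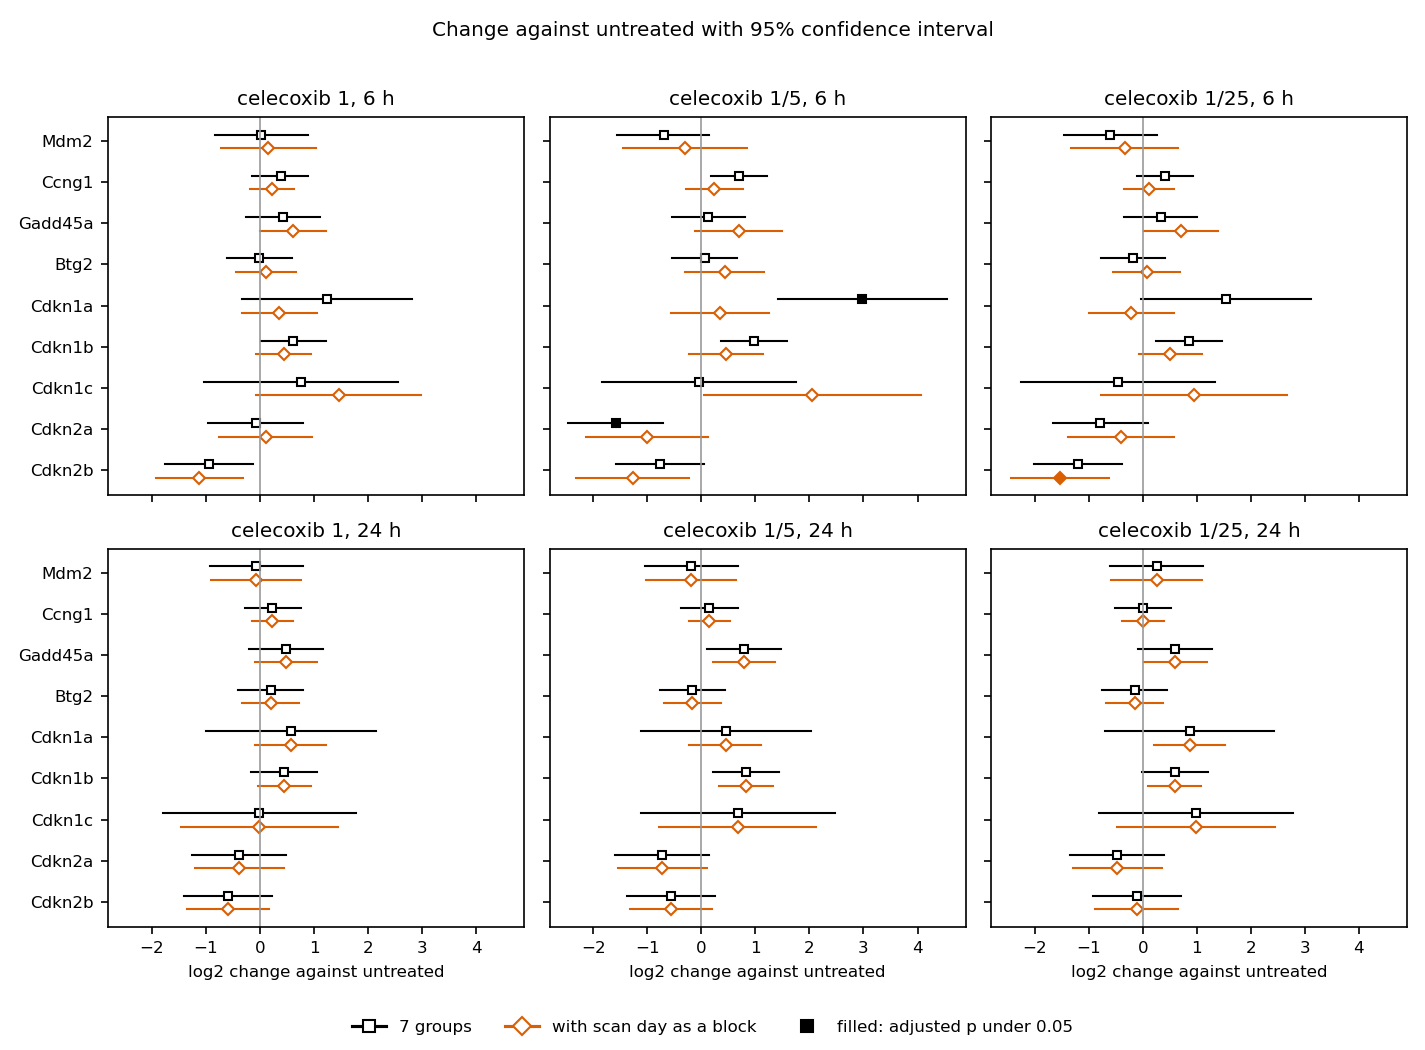
Change of each of the 9 genes against untreated on the log2 scale (x axis) with its 95% confidence interval, in 1 panel for each celecoxib concentration and time, from the fit over 7 groups (black squares) and with scan day as a block (orange diamonds). Cdkn1a and Mdm2 are shown by their less saturated probe, and the filled symbols, with adjusted p under 0.05, are Cdkn1a (2.98) and Cdkn2a (-1.58) at 1/5 for 6 h and, with the block, Cdkn2b (-1.54) at 1/25 for 6 h.

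Mdm2, the ubiquitin ligase that keeps p53 low, did not pass the test in any comparison. Its brightest probe (chr7:57017610-57017669) was saturated on 18 of 20 arrays, which compresses changes, so the never-saturated probe is described, a choice made after the saturation was seen. On it, the untreated arrays read -1.35 and -2.02, celecoxib 1 for 6 h read -1.05, -1.53 and -2.40, celecoxib 1/5 for 6 h read -2.13, -2.71 and -2.32, and celecoxib 1/25 for 6 h read -2.48, -1.67 and -2.71. All 3 arrays of 1/5 for 6 h lay below both untreated arrays, as 31.8% of genes did on their brightest probes. The other 6 h groups overlapped with untreated. The change at 1/5 for 6 h was -0.70 ± 0.41 (SE, 3 arrays against 2, adjusted p = 0.3, 95% interval -1.56 to 0.15), and it was -0.30 with scan day as a block. At 24 h Mdm2 read -2.26 to -1.11 over the 9 arrays, and the changes against untreated were -0.07, -0.19 and 0.26 at 1, 1/5 and 1/25. The saturated probe gave changes of the opposite sign at 1/5 for 6 h (0.09 ± 0.30) and at celecoxib 1 and 1/5 for 24 h (0.25 and 0.38).

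Ccng1 encodes cyclin G1, which recruits a phosphatase to Mdm2, and is a direct p53 target. Its brighter probe (chr10:25779687-25779961) read 0.69 and 0.76 on the untreated arrays and 1.40, 1.43 and 1.41 on the arrays of celecoxib 1/5 for 6 h. The arrays of celecoxib 1 for 6 h read 0.93, 1.07 and 1.30, and those of 1/25 for 6 h read 0.73, 1.27 and 1.42. All arrays at 1 and at 1/5 lay above both untreated arrays, as 10% and 19.7% of genes did, while the 1/25 group overlapped with untreated. The 6 arrays of scan day 2 held the 6 highest values of the gene, 1.27 to 1.43, against 0.62 to 1.07 on the 14 arrays of day 1. The change at 1/5 for 6 h was 0.69 ± 0.24 (adjusted p = 0.0924), and 0.24 ± 0.25 with scan day as a block. By 24 h the levels were 0.96 ± 0.02, 0.87 ± 0.19 and 0.73 ± 0.10 (SD, n = 3) at 1, 1/5 and 1/25, beside 0.72 ± 0.05 (SD, n = 2) untreated. The other Ccng1 probe (chr10:25777917-25777976) gave 1.07 ± 0.58 at 1/5 for 6 h and 1.02 ± 0.58 at 1/5 for 24 h, neither past the test (adjusted p = 0.27 and 0.433). With scan day as a block the former was -0.25 ± 0.66.

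Gadd45a, a stress-induced protein that binds PCNA and p21 and activates stress kinases, read 0.74 and 0.47 on the untreated arrays. At 24 h it read 0.67, 1.02 and 1.56 at concentration 1, 1.57, 1.38 and 1.24 at 1/5, and 1.34, 1.16 and 1.11 at 1/25. All 6 arrays of 1/5 and 1/25 for 24 h lay above both untreated arrays. Of all genes 20.9% did so at 1/5 and 14.2% at 1/25, and the share for both at once was not computed. The change at 1/5 for 24 h, 0.79 ± 0.32, had an unadjusted p of 0.0252 and an adjusted p of 0.275, with a 95% interval of 0.11 to 1.47. All arrays of this comparison were scanned on day 1, but the untreated arrays were on another slide than those of 24 h. At 6 h the changes were 0.43, 0.13 and 0.34 at 1, 1/5 and 1/25, and with scan day as a block they were 0.61, 0.69 and 0.71, none past the test.

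Btg2, an antiproliferative cofactor of mRNA deadenylation, differed least from untreated. It read -0.09 and -0.16 on the untreated arrays and -0.69 to 0.33 on the 18 treated arrays. The 6 changes against untreated ran from -0.18 to 0.20 with an SE of 0.28 (0.43 ± 0.34 at 1/5 for 6 h with scan day as a block), and the widest bounds of their 95% intervals were -0.78 and 0.80. Those bounds are of the fit without the block. Changes within the intervals remain possible, so these values do not show that Btg2 was unchanged.

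**Figure D2:**
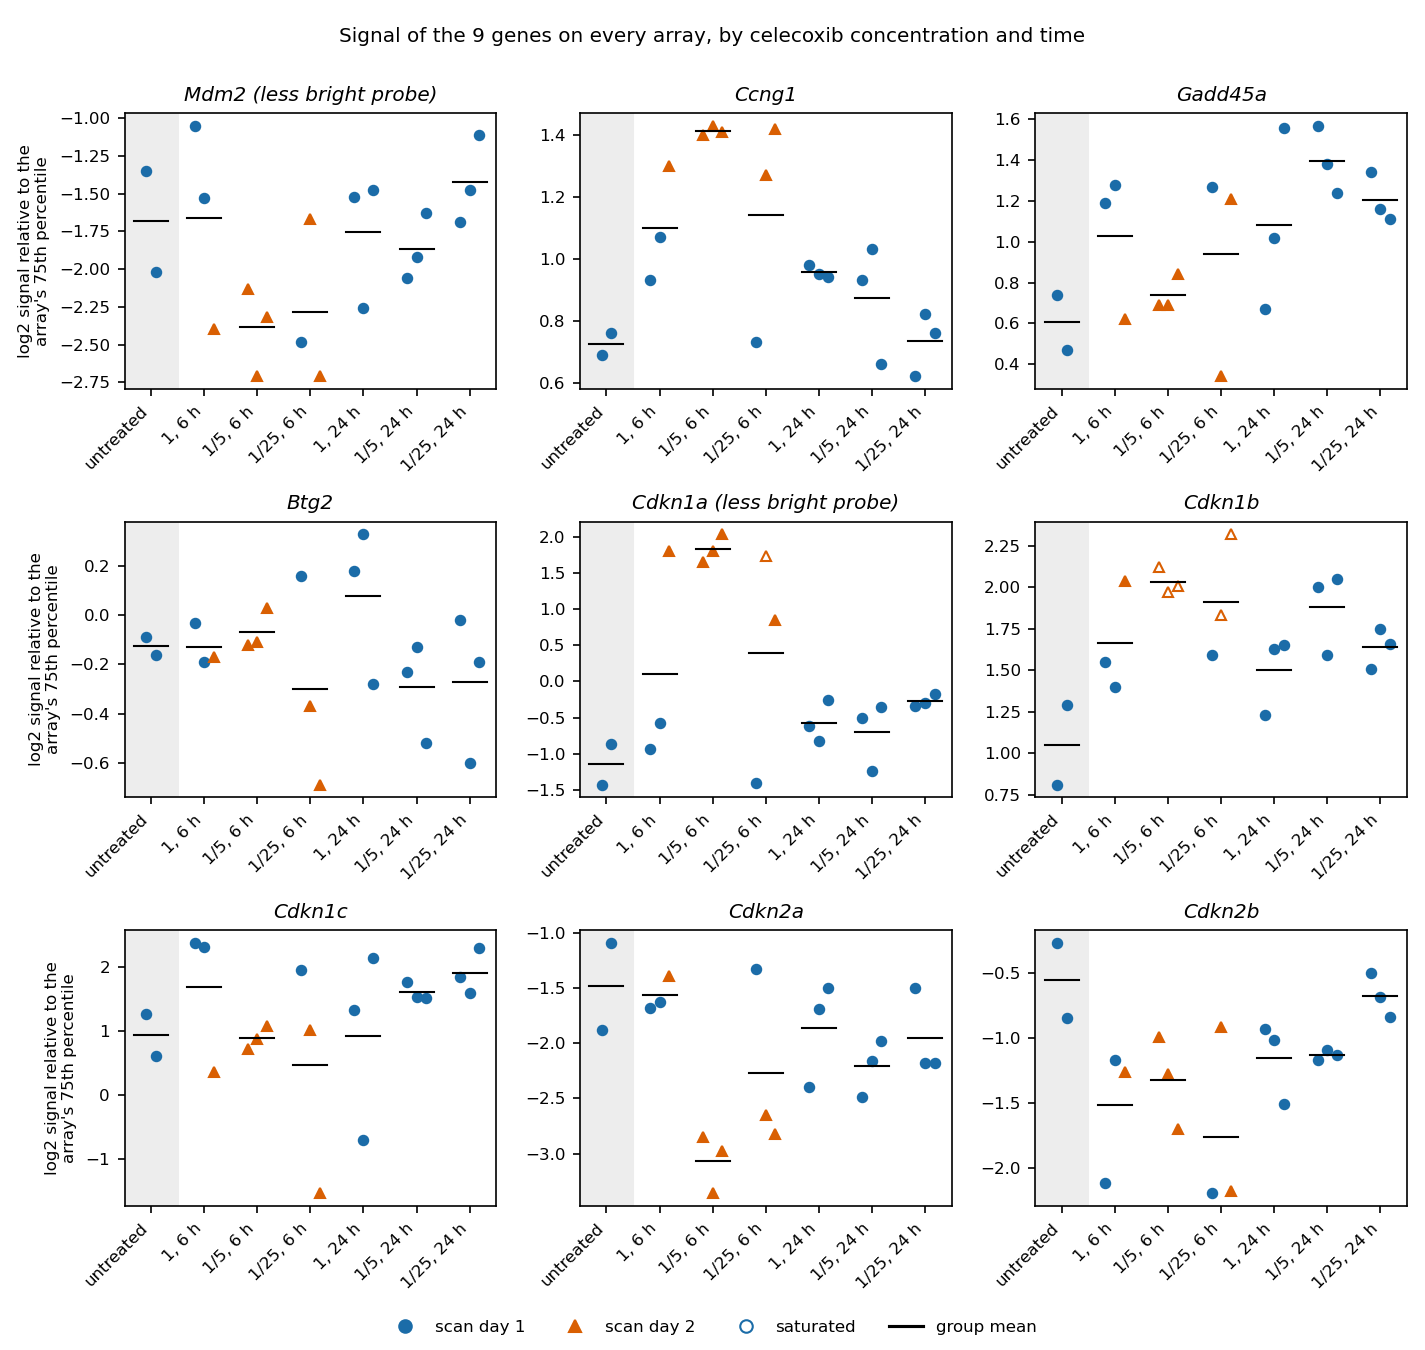
Signal of each of the 9 genes on every array (y axis, log2 relative to the array's 75th percentile) by group (x axis), with circles for scan day 1, triangles for scan day 2, open symbols for saturated arrays and a line at the group mean. Mdm2 and Cdkn1a are shown by their less bright probe. All 9 arrays of 6 h lie below both untreated arrays for Cdkn2b, and the 6 triangles lie above all circles for Cdkn1a and Ccng1.

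Cdkn1a encodes p21, the best known p53 target among the kinase inhibitors. The brighter of its probes, which stands for the gene by the rule of the brightest probe, was saturated on all 20 arrays, so no fold is given for it. The less bright probe read -1.43 and -0.86 on the untreated arrays, -0.94, -0.57 and 1.81 at celecoxib 1 for 6 h, 1.65, 1.81 and 2.04 at 1/5 for 6 h, and -1.40, 1.74 and 0.85 at 1/25 for 6 h, the 1.74 being saturated. The values fall into 2 sets: the 6 arrays of scan day 2 read 0.85 to 2.04 and the 14 arrays of scan day 1 read -1.43 to -0.18. Within celecoxib 1 for 6 h the array of day 2 lay 2.57 above the mean of the day 1 arrays, and within 1/25 for 6 h the arrays of day 2 lay 2.69 above the day 1 array.

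With the less bright probe, chosen after seeing the data, Cdkn1a was higher at celecoxib 1/5 for 6 h than untreated by 2.98 ± 0.74 (adjusted p = 0.0316), where 6.4% of genes passed under this choice of probe. It was lower at 24 h than at 6 h at 1/5 by 2.53 on the log2 scale (change -2.53 ± 0.67, adjusted p = 0.0456), where 4.4% of genes passed. Once scan day was a block, they were 0.35 ± 0.43 (adjusted p = 0.669) and 0.10 ± 0.41 (adjusted p = 0.967). Within scan day 1 the time of 24 h can be compared with untreated, though on other slides. There the probe read -0.62, -0.83 and -0.26 at 1, -0.50, -1.24 and -0.35 at 1/5, and -0.34, -0.30 and -0.18 at 1/25. All arrays at 1 and 1/25 lay above both untreated arrays, as 11.6% and 14.2% of genes did on their brightest probes, and 1/5 overlapped. The largest of these changes, at 1/25, was 0.87 ± 0.31 within day 1 and did not pass (adjusted p = 0.194).

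**Figure D3:**
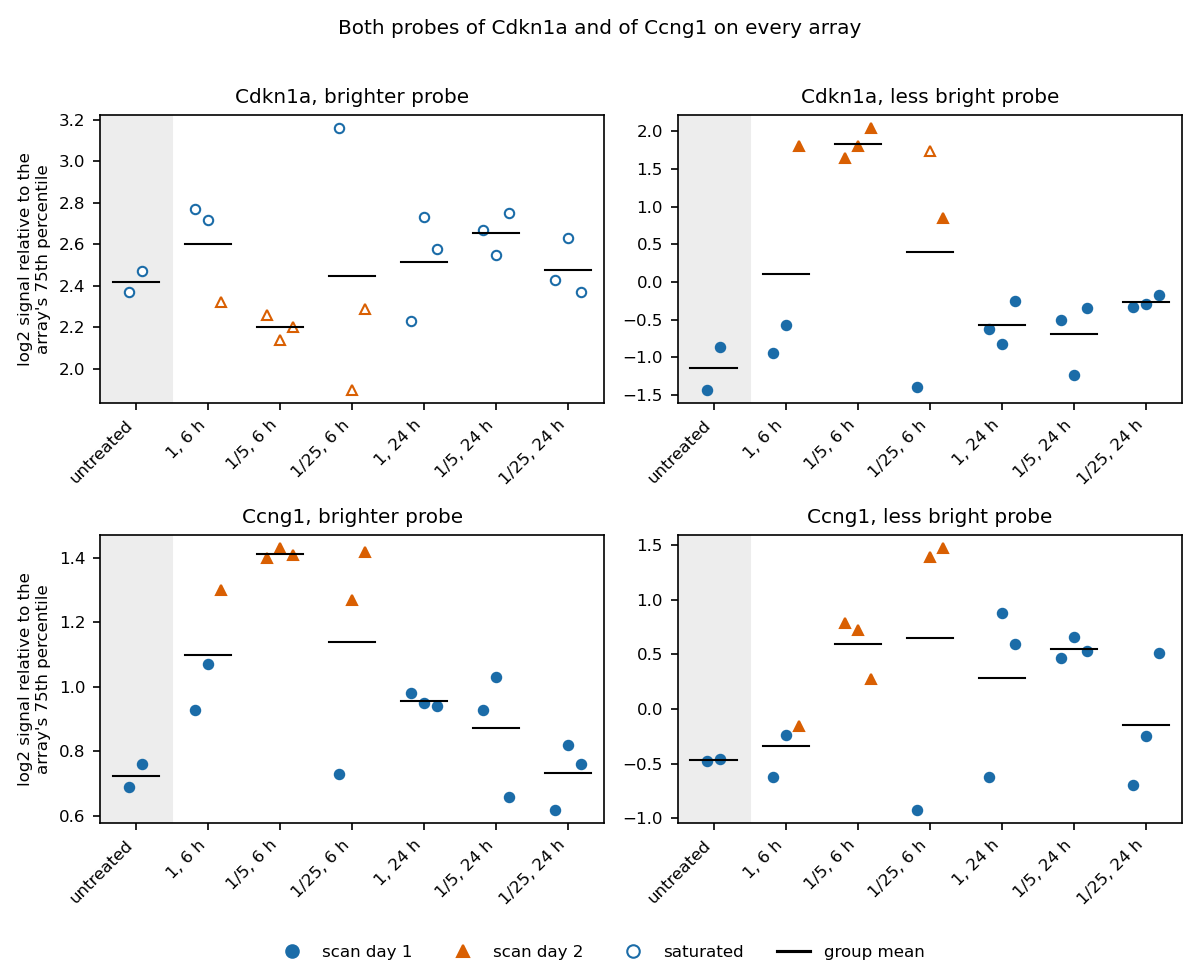
Log2 signal relative to the array's 75th percentile (y axis) of both probes of Cdkn1a and of Ccng1 on every array by group (x axis), with circles for scan day 1, triangles for scan day 2, open symbols for saturated arrays and a line at the group mean. On the less bright Cdkn1a probe the 6 triangles lie at 0.85 to 2.04 and the 14 circles at -1.43 to -0.18, while on its saturated probe the triangles lie among or below the circles.

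The difference between scan days was set against the GC content of the probes, a comparison added after the data were seen. Over 31586 kept probes the day 2 arrays differed from the day 1 arrays of the same 2 groups by a median of -0.08. The 681 probes with at most 25% GC had a median of 1.85, with 91.5% of them above 0, and the 708 probes above 25% and up to 30% GC, the range of the less bright Cdkn1a probe, had a median of 0.80 (quartiles -0.04 and 1.65). The 10449 probes above 40% and up to 45% GC had a median of -0.27. That Cdkn1a probe moved by 2.63, more than 98.8% of kept probes, and the brightest Cdkn1c probe moved by -2.10, with 0.329% of probes lower. Over all genes, 10.9% of 27137 had no overlap between the days. The part of the GC content in the Cdkn1a values was not tested.

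**Figure D4:**
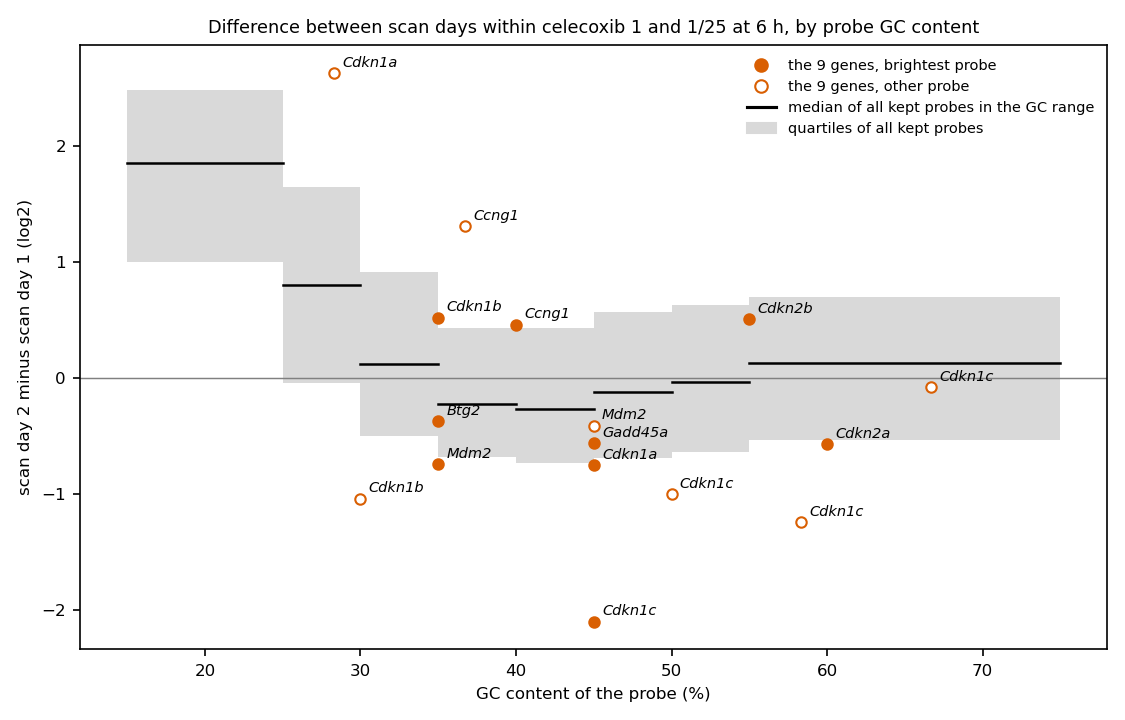
Difference between scan day 2 and scan day 1 within celecoxib 1 and 1/25 for 6 h (y axis, log2, mean of both groups) against the GC content of the probe (x axis, percent) for the 16 probes of the 9 genes (filled for the brightest probe of a gene). Lines and grey boxes are the median and quartiles of all kept probes in each GC range, drawn from 15% to 75%. The less bright Cdkn1a probe lies at 2.63 and the brightest Cdkn1c probe at -2.10.

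Cdkn1b encodes p27, the inhibitor that holds resting cells, heart muscle cells among them, out of the cycle. Its brightest probe, averaged over 10 spots (chr4:172091286-172091345), read 0.81 and 1.29 on the untreated arrays. At 6 h it read 1.55, 1.40 and 2.04 at celecoxib 1, 2.12, 1.97 and 2.01 at 1/5, and 1.59, 1.83 and 2.32 at 1/25. All 9 arrays of 6 h lay above both untreated arrays, as 4.64% of genes did. The changes were 0.61 ± 0.29, 0.98 ± 0.29 and 0.86 ± 0.29 at 1, 1/5 and 1/25, with adjusted p = 0.266, 0.0502 and 0.0735, so none passed. The probe was saturated on 5 of the 6 arrays of scan day 2, and with scan day as a block the changes were 0.44, 0.46 and 0.51. In the deposited ratio table the changes at 1/5 and 1/25 passed (1.2 and 1.34, adjusted p = 0.046 and 0.0299). Without 1/25 replicate 1 the change at 1/25 also passed. That replicate is the only array of its group on scan day 1, so without it treatment and scan day cannot be told apart there. At 24 h all arrays were on day 1, but on other slides than untreated. There Cdkn1b read 1.23 to 2.05, and the change at 1/5 was 0.83 ± 0.29 (unadjusted p = 0.0106, adjusted p = 0.21). The other probe (chr4:172090371-172090430) read 0.90 and -0.86 untreated and spread from -1.01 to 2.15 over the 18 treated arrays, and was never saturated. Its changes at 6 h were -0.04, 0.84 and 0.42 at 1, 1/5 and 1/25 with an SE of 0.68 (adjusted p = 0.98, 0.466 and 0.731), and at 1/5 for 24 h the change was 1.64 ± 0.68 (adjusted p = 0.286). These are from the fit without the block. From scan day 1 to scan day 2, within celecoxib 1 and 1/25 for 6 h, this probe moved by -1.04. The brightest probe moved the other way, by 0.52.

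Cdkn1c encodes p57, an imprinted inhibitor of the same family that is active in the developing heart. Its brightest probe (chr1:203988794-203988853) read 1.26 and 0.60 untreated and was the most scattered of the 9 genes, from -1.54 to 2.38 over the treated arrays. None of its 6 changes against untreated passed: they ran from -0.45 to 0.98 with an SE of 0.85. At 6 h the changes of 0.76, -0.04 and -0.45 at 1, 1/5 and 1/25 became 1.46, 2.05 and 0.94 with scan day as a block (SE 0.72, 0.94 and 0.81, adjusted p = 0.187, 0.232 and 0.41). At 24 h the arrays of 1/5 (1.77, 1.53 and 1.52) and 1/25 (1.84, 1.59 and 2.30) all lay above both untreated arrays, with changes of 0.68 and 0.98. Of all genes 20.9% did so at 1/5 and 14.2% at 1/25. The other 3 probes of the gene gave 0.63, -0.14 and 0.40 at 1/5 and 0.14, -0.10 and -0.16 at 1/25, so that the probes differed in sign.

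Cdkn2a encodes p16, which holds CDK4 and CDK6 inactive and accumulates in ageing cells. It read -1.88 and -1.09 untreated, -1.68, -1.63 and -1.39 at celecoxib 1 for 6 h, -2.85, -3.36 and -2.98 at 1/5 for 6 h, and -1.33, -2.65 and -2.82 at 1/25 for 6 h. The 3 arrays of 1/5 for 6 h held the lowest values of all 20 arrays. They lay wholly below untreated, as 31.8% of genes did. The share of genes with their lowest values on these arrays was not computed. The change was -1.58 ± 0.42 (2.99-fold lower, 3 arrays against 2, adjusted p = 0.0354), and at 1 and 1/25 it was -0.08 ± 0.42 and -0.79 ± 0.42, not past the test. With scan day as a block the change at 1/5 was -1.01 ± 0.53 (adjusted p = 0.287), in a fit where 1.11% of genes passed. Without any single array of the comparison the call was lost: the change was -1.98 and -1.19 without untreated replicates 1 and 2, and -1.69, -1.43 and -1.62 without treated replicates 1, 2 and 3, with adjusted p from 0.0697 to 0.164. In the deposited ratio table it was -1.39 (adjusted p = 0.0773). At 1/25 for 6 h Cdkn2a passed without 1/25 replicate 1, the only array of that group on scan day 1, which leaves day 2 arrays against day 1 arrays. Within 1/25 for 6 h the arrays of day 2 lay 1.41 below the array of day 1, while within celecoxib 1 for 6 h the day 2 array lay 0.27 above the others. At 24 h all arrays were on day 1, but on other slides than untreated. There Cdkn2a read -1.86 ± 0.47, -2.21 ± 0.26 and -1.96 ± 0.39 (SD, n = 3) at 1, 1/5 and 1/25, and its changes of -0.38, -0.73 and -0.48 did not pass.

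Cdkn2b encodes p15, the p16 relative that transforming growth factor beta is known to induce. It read -0.27 and -0.85 untreated, -2.11, -1.17 and -1.26 at celecoxib 1 for 6 h, -0.99, -1.28 and -1.70 at 1/5 for 6 h, and -2.19, -0.92 and -2.17 at 1/25 for 6 h. All 9 arrays of 6 h lay below both untreated arrays, as 8.48% of genes did, and the 3 concentrations overlapped with each other. The changes were -0.95 ± 0.39, -0.76 ± 0.39 and -1.19 ± 0.39 at 1, 1/5 and 1/25, with adjusted p = 0.211, 0.239 and 0.0664. With scan day as a block the change at 1/25 was -1.54 ± 0.42 and passed (adjusted p = 0.0326), in a fit where 11.5% of genes passed. Within scan day 1, with 1 array of that group left, it was -1.62 ± 0.41 (adjusted p = 0.037). That test assumes that the lone array varies like the other groups. Without 1/25 replicate 2 the change was -1.61 and passed (adjusted p = 0.0104), and without untreated replicate 1 it was -0.90.

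At 24 h Cdkn2b read -0.93, -1.02 and -1.51 at 1, -1.17, -1.09 and -1.13 at 1/5, and -0.50, -0.69 and -0.84 at 1/25. The arrays of 1 and 1/5 lay below both untreated arrays, as 16.7% and 19.1% of genes did. Those of 1/25 lay between the untreated arrays. The group means ordered as untreated (-0.56 ± 0.41, SD, n = 2), 1/25 for 24 h (-0.68 ± 0.17), 1/5 for 24 h (-1.13 ± 0.04), 1 for 24 h (-1.15 ± 0.31), 1/5 for 6 h (-1.32 ± 0.36), 1 for 6 h (-1.51 ± 0.52) and 1/25 for 6 h (-1.76 ± 0.73, each SD, n = 3). Of the neighbours in this order, 1/25 and 1/5 for 24 h alone had arrays without overlap, and that difference was not among the tests. The order was taken from these same values, and the share of all genes without overlap between those groups was not computed.

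**Figure D5:**
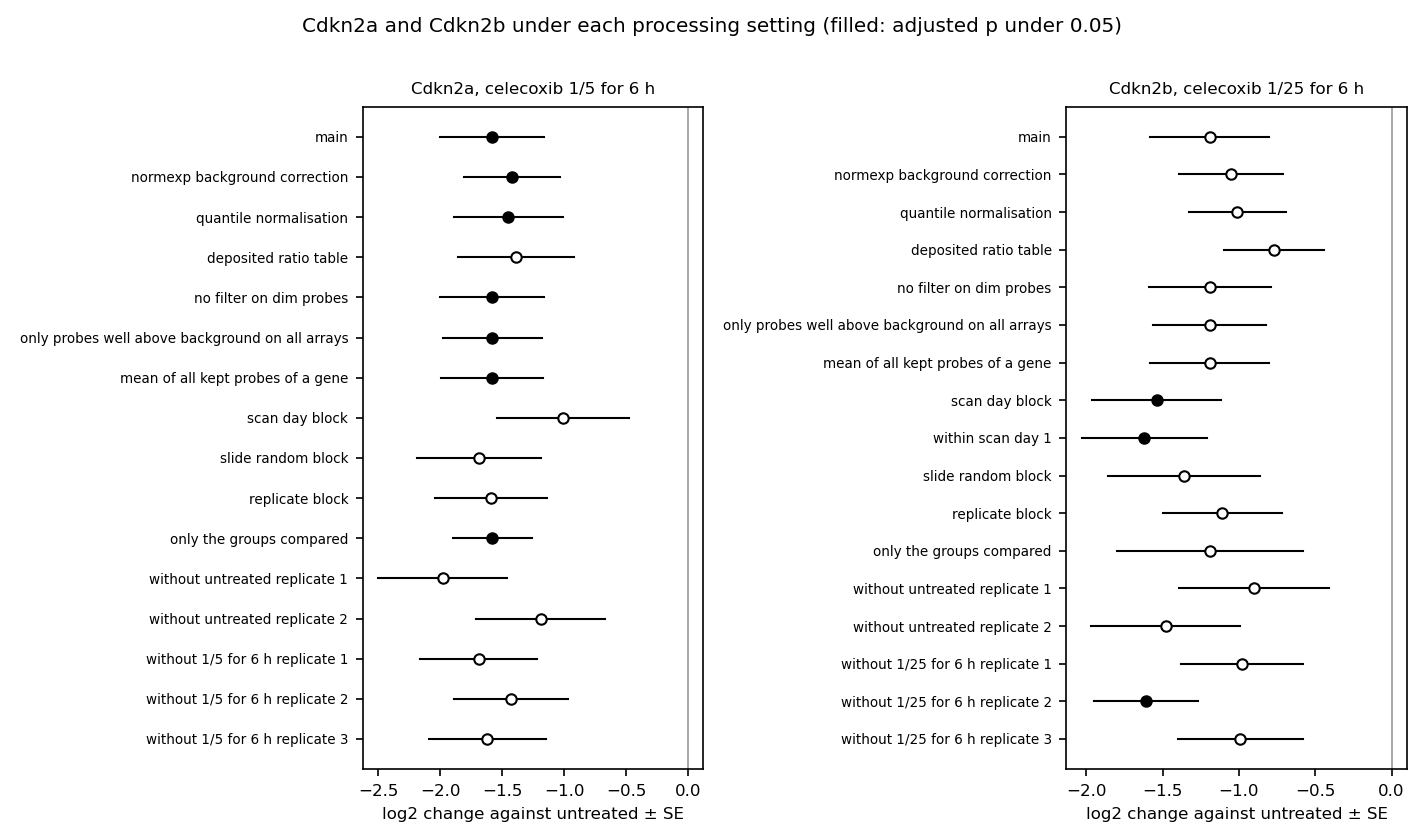
Log2 change against untreated with its SE (x axis) of Cdkn2a at celecoxib 1/5 for 6 h and of Cdkn2b at 1/25 for 6 h under each processing setting (y axis), filled where the adjusted p was under 0.05. Every point lies below 0, Cdkn2a between -1.98 and -1.01 and Cdkn2b between -1.62 and -0.77.

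On the brightest probes, none of the 9 genes passed between concentrations 1 and 1/25 or between the times. The least saturated Cdkn1a probe did pass between the times at 1/5, as given above, and the call was lost with scan day as a block. Concentration 1 was compared with 1/25 at 6 h and at 24 h, and 0% of genes passed in limma in either case, as in the test of whether the concentration effect differed between the times (0%). At an unadjusted p under 0.05 there were 1749, 817 and 986 genes in these 3 tests, none of them among the 9. In that last test the largest value among the 9 was that of Cdkn1c, at -2.21 ± 1.08 (unadjusted p = 0.0559, adjusted p = 1). Between 24 h and 6 h none of the 9 passed at concentrations 1, 1/5 or 1/25, where 0.18%, 4.75% and 2.41% of genes did, and 0, 3 and 1 of the 9 had an unadjusted p under 0.05, beside 10.3%, 26.8% and 21.8% of genes. At 1/25 Cdkn2b was the nearest, 1.08 ± 0.35 higher at 24 h (adjusted p = 0.0935, and 0.0693 with scan day as a block), with all 3 arrays of 24 h above all 3 of 6 h, as 10.9% of genes had. At 1/5 the 24 h and 6 h groups lie wholly on different scan days, and there Cdkn2a differed by 0.86 ± 0.37, Gadd45a by 0.66 ± 0.29 and Ccng1 by -0.54 ± 0.22 (adjusted p = 0.153, 0.157 and 0.126). These comparisons share arrays with those against untreated.

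Among 10 tested of 14 regulators of p53, Mdm4, the Mdm2 relative that masks p53, read -1.89 and -2.08 untreated and -3.70, -3.07 and -2.66 at 1/25 for 6 h, a change of -1.16 ± 0.38 that did not pass (adjusted p = 0.0696). At 1/5 for 6 h Hipk2, a kinase that activates p53, fell (-1.33 ± 0.35, adjusted p = 0.0359) and Rchy1, a ubiquitin ligase of p53, rose (2.96 ± 0.70, adjusted p = 0.0274). Hipk2 also fell at 1/25 for 6 h (-1.42 ± 0.35, adjusted p = 0.0324). Rchy1 was lower at 24 h than at 6 h at 1/5 (-2.33 ± 0.63, adjusted p = 0.047), a call lost with scan day as a block (0.13, adjusted p = 0.951). The other 4 comparisons with untreated gave no call on this list, and its medians at 1/5 and 1/25 for 6 h were -0.30 and -0.60, beside -0.20 and -0.19 over all genes. Of all genes 6.55% and 6.03% passed at 1/5 and 1/25 for 6 h, and 4.75% between 24 h and 6 h at 1/5.

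Of 24 tested of 32 other p53 targets, 1 rose at 1/5 for 6 h, and 1 rose and 1 fell at 1/25 for 6 h. In these 2 comparisons 6.55% and 6.03% of all genes passed. Rrm2b, the p53-induced subunit of ribonucleotide reductase, rose in both (1.99 ± 0.42 and 2.05 ± 0.42, adjusted p = 0.0214 and 0.019). Gdf15, a stress-induced cytokine, fell at 1/25 for 6 h (-1.07 ± 0.30, adjusted p = 0.0471). The medians of the list at 1/5 and 1/25 for 6 h were -0.28 and -0.43, beside -0.20 and -0.19 over all genes. Plk2, a polo-like kinase, was higher at 24 h than at 6 h at 1/5 and 1/25 (1.65 ± 0.40 and 1.80 ± 0.40), and Siva1, a proapoptotic protein, at 1/5 (1.61 ± 0.38). With scan day as a block these calls were lost, with Plk2 at 0.61 and 1.1 and Siva1 at 0.33 (adjusted p = 0.741, 0.135 and 0.819).

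Of 15 tested of 20 other kinase inhibitors and G1 genes, the phosphatase Cdc25a (2.91 ± 0.69) and cyclin E2, Ccne2 (1.66 ± 0.40), rose at 1/5 for 6 h, and Cdc25a was lower at 24 h than at 6 h at 1/5 (-3.40 ± 0.62), a call lost with scan day as a block (-1.35, adjusted p = 0.497). Of 8 tested of 9 relatives of Btg2, Gadd45a and Ccng1, Tob1, an antiproliferative protein, rose at 1/25 for 6 h (1.16 ± 0.33, 6 of 20 arrays saturated). Of 16 proliferation markers, Rrm2, the S-phase reductase subunit, rose at 1/5 and 1/25 for 6 h (1.65 ± 0.30 and 1.12 ± 0.30), and the mitotic kinases Plk1 (1.15 ± 0.26) and Cdk1 (1.02 ± 0.25) were higher at 24 h than at 6 h at 1/25. Both calls were lost with scan day as a block (1.05 and 0.66, adjusted p = 0.0719 and 0.136). Over all genes, 6.55% and 6.03% passed against untreated at 1/5 and 1/25 for 6 h. Between 24 h and 6 h, 4.75% and 2.41% passed at 1/5 and 1/25. At 24 h no proliferation marker passed against untreated, and 13, 15 and 15 of 16 lay above 0 at 1, 1/5 and 1/25, with medians of 0.59, 0.50 and 0.49 beside 0.00, -0.03 and -0.04 over all genes. Of all genes 50.2%, 48.6% and 47.4% lay above 0. These comparisons share the same 2 untreated arrays, which were on another slide than those of 24 h. With scan day as a block 0 of the 6 calls of these 5 lists at 1/5 for 6 h passed: Rrm2b (2.1), Hipk2 (-1.15) and Rrm2 (1.15) kept much of their size, while Rchy1 was at 0.49, Cdc25a at 0.85 and Ccne2 at 0.78. In the same fit, at 1/25 for 6 h 3 of 5 calls passed, namely Rrm2b (2.13), Hipk2 (-1.30) and Gdf15 (-1.38).

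The genes whose signal was most like that of the less bright Cdkn1a probe over the 20 arrays, among 4684 named genes never saturated and always above background, were Prps1, Adipor1 and Ppp2r5e (Pearson r = 0.95, 0.95 and 0.94). Over the 14 arrays of scan day 1 their correlations were 0.50, 0.51 and 0.62. For the less bright Mdm2 probe they were Pold3, Adam23 and Rab13 (r = 0.81, 0.79 and 0.78, and 0.65, 0.66 and 0.70 within day 1). These are descriptions over arrays that share scan days, slides and treatments.

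The labels call the cells cardiomyocytes, and all 9 cardiomyocyte markers were well above background on all 20 arrays, as were 6 of 7 fibroblast, 3 of 3 tested smooth muscle, 4 of 5 tested macrophage and leukocyte, and 1 of 3 tested endothelial markers. The summed level of the macrophage and leukocyte markers, in units of the 75th percentile, was 5.37 and 5.47 untreated. It was 2.28 to 5.03 on the treated arrays, lower on every one. The single markers did not all follow the sum. At 1/5 for 6 h and at 1 for 24 h, 3 of 5 lay above 0 against untreated (medians 0.05 and 0.28). In each of the other comparisons with untreated 2 of 5 did (medians -0.72 to -0.05). Of these markers Cd14, a monocyte receptor, fell at 1/25 for 6 h (-1.26 ± 0.34, adjusted p = 0.0419), and Csf1r was higher at 24 h than at 6 h at 1/25 (2.74 ± 0.65). Of the cardiomyocyte markers Myh6 was higher at 24 h than at 6 h at 1/5 (2.81 ± 0.73, adjusted p = 0.0442). The comparisons behind these calls span both scan days, and the calls were not tested with scan day as a block. The 1 tested erythroid marker lay at 0.109 to 0.724. The summed cardiomyocyte markers were 18.5 to 21.4 at 1/5 for 6 h, against 23.4 to 26.2 untreated and 34.4 to 38.0 at 1/5 for 24 h, and the fibroblast markers 16.1 to 16.6, 19.5 and 25.3 to 27.1. All arrays of 1/5 for 6 h belong to scan day 2, where the medians of these sums over all groups were 20.3 for cardiomyocyte and 16.3 for fibroblast markers, against 31.6 and 23.8 on day 1. The sums include saturated markers, which compresses changes: Actc1 and Col1a2 on 20 arrays, Tnnt2 on 16, and Col1a1 and Pdgfra on 15 each. Gene by gene, the median change at 1/5 for 6 h against untreated was -0.52 for cardiomyocyte and -0.06 for fibroblast markers. Over all genes it was -0.20. The part of these markers in the changes of Cdkn2a and Cdkn2b was not tested.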

How the data were processed

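RNA was labelled with Cy3 and hybridised to single-colour Agilent arrays. Per the file headers, the deposited scanner output gives linear spot intensity from Agilent software, Feature Extraction, version 9.5.3.1. A further deposited table gives each probe's linear ratio, computed by the authors in a way not given in the sources used here. Here the processed signal was taken to log2 minus log2 of the array's 75th percentile, outlier spots were left out and spots of a probe averaged. A probe was kept (31775 were) if all arrays of 1 or more groups had it well above background, and the brightest stood for its gene. One mean for each of 7 groups was fitted over all 20 arrays in limma 3.58.1 (R 4.3.3, 13 residual degrees of freedom, 17.1 after moderation), with two-sided tests and Benjamini-Hochberg adjustment over all genes. Software included data.table (1.17.8), jsonlite 2.0.0 and, for slide correlation, statmod 1.5.0. The genes and lists were chosen with earlier results of these data known. Named list genes are those past the test, at most 4 per list and comparison by adjusted p, with Mdm4 and 1 gene not reported here; the 3 genes most like Cdkn1a and Mdm2 were taken by Pearson r. Alternatives were other background corrections, normalisations, filters, probe rules, blocks and samples. In simulated data for celecoxib 1/5 for 6 h against untreated (200 of 27143 genes changed), 0.5%, 50% and 84% of log2 changes of 1, 2 and 3 were recovered. The simulated noise was independent between arrays and held no scan day difference, so recovery in the real comparison, which lies across scan days, may differ.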

Additional observations from a re-analysis of the deposited data

How the results depend on the processing

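For celecoxib 1/5 for 6 h against untreated, 1 of the 9 genes passed (Cdkn2a). In the deposited ratio table it was another gene (Cdkn1b). The count was 2 with normexp background correction (with Ccng1 at 1.04), with quantile normalisation (with Cdkn1b), with only probes above background on all arrays (with Cdkn1b), with the mean of all kept probes (with Cdkn1a at 1.38) and with the least saturated probe (with Cdkn1a at 2.98); it was 0 with scan day, slide or the replicate block, 0 with the least saturated probe and scan day, and 0 to 0 without each array in turn. For 1/25 for 6 h the count was 1 in the deposited ratio table (Cdkn1b), 1 with scan day blocked or with day 1 alone (Cdkn2b), also with the least saturated probe, and 0 to 2 without each array. For 24 h against 6 h at 1/5 it was 1 with normexp (Ccng1), 4 with only the groups compared (Ccng1, Cdkn1c, Cdkn2a and Gadd45a) and 1 with the least saturated probe (Cdkn1a at -2.53); all 3 of these Cdkn1a values have the sign opposite to that of its saturated probe; at 1/25 it was 0 to 1 without each array (Ccng1 without 1/25 for 6 h replicate 1, Cdkn2b without replicate 2). The cause of these shifts was not tested. Without 1/25 for 6 h replicate 1, that group has arrays of scan day 2 alone. Same-numbered arrays showed no shared deviation from their group means (57 pairs, mean r 0, range -0.44 to 0.46). Of 20 arrays, 7 were most like an array of their own number. Scan day and slide were not removed first, so these values do not settle whether the replicate numbers pair the arrays. With the replicate block Cdkn2a was at -1.59 (adjusted p = 0.0642), and no other count changed. The comparison of 1/5 for 6 h could not be made within scan day 1, where that group has no array. Saturation limits Cdkn1a, Mdm2 and, on 5 arrays, Cdkn1b, and signal over background limited none of the 16 probes.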
